A study of Homo sapiens with 12 samples.

Results

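RGS4, THY1, STC2, CLU, ELMO1 and ITPK1 are 6 genes whose read counts lay lower with each of 2 hairpins against p53 than with either control of the knockdown arm. They were chosen on these values from a table of 25435 gene symbols, so their hairpin values are given as a description, with no test. The RNA came from LMSU, an established line of human gastric cancer labelled with the p53 variant R175H. In the knockout arm, labelled without doxycycline and with GFP, construct sg-1 is labelled as lacking R175H p53, and construct V2, its control, as keeping it. In the knockdown arm, labelled with doxycycline, p53 shRNA 1 and p53 shRNA 2 are labelled as lacking it, and the scramble hairpin and the vector as keeping it. Each of the 6 groups has 2 libraries. The labels do not say whether these came from separate cultures or whether a knockout is 1 clone, so the error covers the spread between libraries, which may be technical.

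The 6 genes act at different places in the cell. RGS4 encodes a protein that speeds GTP hydrolysis by G alpha subunits and so shortens signals from G protein-coupled receptors. THY1, also called CD90, encodes a glycoprotein held on the cell surface by a lipid anchor, a familiar marker of fibroblasts and mesenchymal cells that binds integrins. STC2 encodes stanniocalcin 2, a secreted glycoprotein that inhibits the protease PAPP-A and thereby the release of insulin-like growth factors. CLU encodes clusterin, a secreted chaperone that binds misfolded proteins and lipids. ELMO1 encodes a scaffold that works with DOCK proteins to activate the small GTPase RAC in migration and in the engulfment of dying cells. ITPK1 encodes a kinase that adds phosphates to inositol phosphates. R175H lies in the DNA-binding domain of p53 and is one of the changes most often seen there in tumours.

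Because the 6 genes share a direction with both hairpins, the sequence around their transcription starts is shown, taken from RefSeq (build GRCh38.p14), which is not the hg19 build of the counts. Windows of 300 bases, 250 before and 50 after a start, were used for 4 of the 6 genes. They cover 4 starts of RGS4, 1 of STC2, 4 of ELMO1 and 2 of ITPK1. THY1 had no window, and CLU was left out by choice, so the matches counted below cover neither gene. Counts per gene do not show which start the cells use. A window with the letters CCAAT on either strand, the box bound by NF-Y, is printed for each gene, with the box in capitals. The RGS4 window is chr1:163069004-163069303 on the plus strand, and those of STC2, ELMO1 and ITPK1 are chr5:173328365-173328664, chr7:36986084-36986383 and chr14:93036925-93037224 on the minus strand.
RGS4: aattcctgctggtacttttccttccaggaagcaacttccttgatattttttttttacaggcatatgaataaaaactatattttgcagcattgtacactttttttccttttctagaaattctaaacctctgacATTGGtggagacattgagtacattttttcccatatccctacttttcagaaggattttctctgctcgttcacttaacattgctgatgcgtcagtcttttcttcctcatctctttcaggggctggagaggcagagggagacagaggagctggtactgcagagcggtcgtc
STC2: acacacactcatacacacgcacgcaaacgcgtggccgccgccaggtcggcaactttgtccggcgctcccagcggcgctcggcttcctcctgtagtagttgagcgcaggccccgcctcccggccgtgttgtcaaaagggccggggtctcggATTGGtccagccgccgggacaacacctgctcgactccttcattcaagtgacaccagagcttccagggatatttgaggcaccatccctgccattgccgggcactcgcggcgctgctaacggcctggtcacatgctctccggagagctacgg
ELMO1: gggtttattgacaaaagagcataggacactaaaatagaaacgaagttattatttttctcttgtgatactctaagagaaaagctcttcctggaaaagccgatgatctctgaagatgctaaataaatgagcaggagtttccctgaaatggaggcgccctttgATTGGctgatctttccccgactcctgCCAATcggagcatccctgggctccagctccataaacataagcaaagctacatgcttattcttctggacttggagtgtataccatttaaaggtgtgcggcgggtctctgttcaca
ITPK1: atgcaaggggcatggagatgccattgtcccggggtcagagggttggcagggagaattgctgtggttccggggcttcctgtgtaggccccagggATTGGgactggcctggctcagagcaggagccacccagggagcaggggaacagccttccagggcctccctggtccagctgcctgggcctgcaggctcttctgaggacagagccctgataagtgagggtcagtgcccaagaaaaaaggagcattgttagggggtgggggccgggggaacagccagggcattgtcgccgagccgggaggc

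CCAAT stood in 7 of these 11 windows, which together cover all 4 genes, and in 34.6% of 35116 windows of the same length over all genes. Counted by gene, 39.7% of 27305 genes had it in at least 1 window, and a gene with more windows, such as RGS4 or ELMO1, has more places for a match. The printed windows were picked for holding the box, and 2 windows of RGS4 overlap and share a box, so they are not separate matches. The GC box GGGCGG stood in 2 of the 11 windows (45% of all windows), the hypoxia core ACGTG in 1 (21.4%), the ATF4 composite site TGATGNAA in 1 (3.62%), a p53 half-site in 1 (6.63%) and the AP-1 site TGANTCA in 0 (7.71%). Both strands were searched for each motif. A match describes these letters and is no evidence of binding.

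Library totals ran from 9738094 to 16823246 counts. All 6 genes passed the low-count filter that left 13365 genes for testing, with between 52 counts (RGS4) and 6089 counts (STC2) per library. Levels are in CPM, counts scaled to a common library size with TMM factors, so they compare libraries for 1 gene and not genes with each other. The biological coefficient of variation, the spread between libraries of a group beyond sampling noise, was 15.6% among knockout-arm libraries and 3.08% among those of the knockdown arm. The labelled gastric origin was checked on marker lists: 7 of 8 gastric lineage genes were found in the table and all 7 stayed below 1 CPM in every library. Of 8 epithelial markers 5 stayed below 1 CPM, EPCAM and CDH1 among them, while KRT8 and KRT18 were present. All 10 fibroblast and mesenchymal markers were tested, and VIM was at 6814 CPM or more. Of the endothelial markers 5 of 6 stayed below 1 CPM, of the leukocyte markers 5 of 7, and of the neural markers 4 of 6. In these bulk samples, fewer cells of a type and less RNA per cell cannot be told apart.

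In the knockdown arm, the libraries of all 6 genes separated into 2 blocks: the 4 hairpin libraries lay below the 4 control libraries. This is what chose the genes. Of 13365 genes tested, 761 (5.69%) had this order, and 39 genes (0.292%) were called lower in all 4 comparisons of a hairpin with a control at an adjusted p below 0.05 (edgeR quasi-likelihood test). The gap between the lowest control and the highest hairpin library, taken as a ratio, was narrowest for ITPK1, at 20.9 over 15.4 CPM (1.35). It was widest for RGS4, at 10.5 over 6.55 CPM (1.61). Of the 39 genes, those with the least margin were IL18, with log2 fold changes between -0.41 and -0.43, and GM2A, between -0.52 and -0.88. NMT2, between -0.32 and -0.43, and NOV, between -0.53 and -0.89, fell just outside. These 4 genes were picked after their values were seen.

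**Figure D1:**
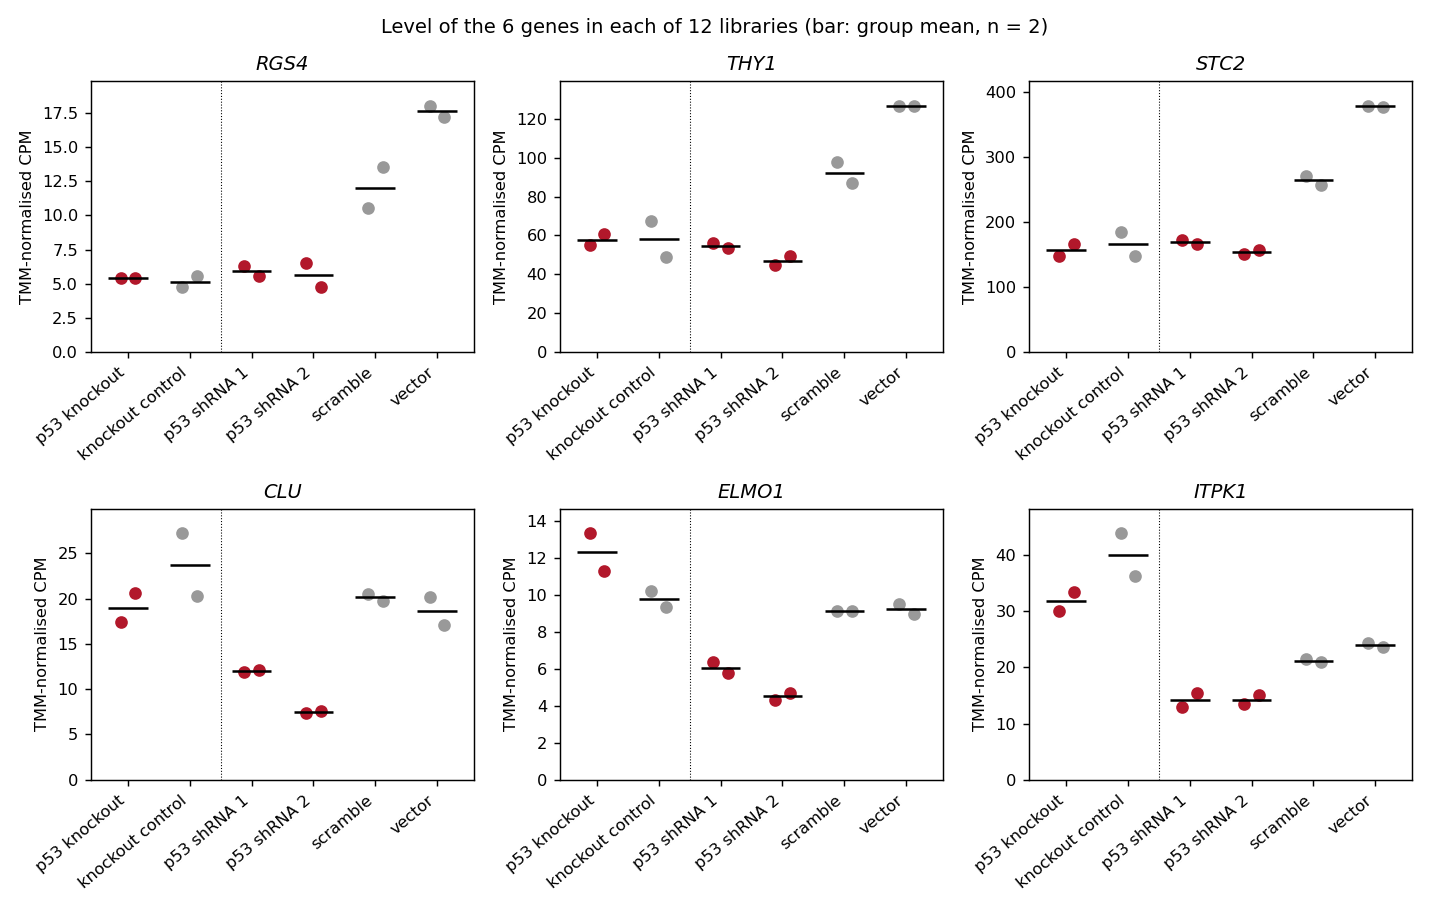
TMM-normalised CPM (y axis, from 0) of each gene in each library by group (x axis); points are libraries, bars are group means (n = 2), red marks groups labelled as lacking p53 R175H, and the dotted line parts the knockout arm from the knockdown arm. In the upper row, both knockout-arm groups sit near the hairpin groups; in the lower row, ITPK1 sits above scramble and vector in both knockout-arm groups, while CLU in the knockout overlaps them.

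RGS4, the regulator of G protein signalling, was at 6.29 and 5.57 CPM with shRNA 1 and 6.55 and 4.77 CPM with shRNA 2, against 10.5 and 13.6 CPM in scramble and 18.0 and 17.2 CPM in vector. The hairpin libraries overlapped each other, and scramble lay between them and vector without touching either. Its log2 fold change was -1.02 with shRNA 1 and -1.09 with shRNA 2 against scramble, and -1.56 and -1.64 against vector. RGS4 was at 5.41 and 5.42 CPM in the knockout and 4.73 and 5.53 CPM in its control. Both groups of the knockout arm were as low as the hairpin groups, and its control is labelled as keeping p53 R175H. Arm, construct and doxycycline differ together between the arms, and the cause was not tested.

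THY1, the surface glycoprotein, was at 56.0 and 53.3 CPM with shRNA 1 and 44.7 and 49.4 CPM with shRNA 2, against 97.6 and 86.8 CPM in scramble and 126.8 and 126.4 CPM in vector. Its log2 fold change was -0.75 and -0.97 against scramble and -1.21 and -1.43 against vector, with shRNA 1 given before shRNA 2. Without doxycycline, THY1 was at 55.0 and 60.9 CPM in the knockout and 67.3 and 49.1 CPM in its control. These groups overlapped, and the knockout libraries also overlapped those of shRNA 1.

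STC2, the stanniocalcin gene, was at 171.9 and 166.0 CPM with shRNA 1 and 150.2 and 156.3 CPM with shRNA 2, against 270.4 and 257.0 CPM in scramble and 378.3 and 376.5 CPM in vector. The order was again hairpins, scramble, vector with no overlap between those 3 levels. Log2 fold changes were -0.64 and -0.78 against scramble and -1.16 and -1.30 against vector. The knockout arm held STC2 at 147.4 and 165.9 CPM in the knockout and 183.8 and 147.3 CPM in its control, a span that also holds both hairpins.

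CLU, the clusterin gene, was at 11.95 and 12.1 CPM with shRNA 1 and 7.36 and 7.62 CPM with shRNA 2, against 20.5 and 19.8 CPM in scramble and 20.1 and 17.1 CPM in vector. Here the hairpins were apart from each other and scramble overlapped vector. Log2 fold changes with shRNA 1 were -0.74 against scramble and -0.63 against vector, and with shRNA 2 they were -1.43 and -1.31. CLU was at 17.4 and 20.6 CPM in the knockout and 27.2 and 20.3 CPM in its control, levels that overlapped scramble.

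ELMO1, the RAC-activating scaffold gene, was at 6.38 and 5.78 CPM with shRNA 1 and 4.34 and 4.69 CPM with shRNA 2, against 9.14 and 9.13 CPM in scramble and 9.50 and 8.97 CPM in vector. It too was lowest with shRNA 2, and its controls overlapped. Log2 fold changes were -0.58 with shRNA 1 and -1.01 with shRNA 2 against scramble, and -0.60 and -1.03 against vector. In the other arm ELMO1 was at 13.4 and 11.3 CPM in the knockout and 10.2 and 9.36 CPM in its control. Both knockout libraries lay above every other library of the series.

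ITPK1, the inositol phosphate kinase gene, was at 13.0 and 15.4 CPM with shRNA 1 and 13.4 and 15.2 CPM with shRNA 2, against 21.6 and 20.9 CPM in scramble and 24.3 and 23.6 CPM in vector. The hairpins overlapped, and scramble and vector were close but apart. Log2 fold changes were -0.58 and -0.57 against scramble and -0.75 and -0.74 against vector. ITPK1 was at 30.04 and 33.5 CPM in the knockout and 43.9 and 36.3 CPM in its control, so all 4 libraries of that arm lay above all 8 of the knockdown arm. Antisense genes named for ELMO1 and ITPK1 had at most 10 and 2 counts in a library. The strand setting of the counting is not given in the sources used here, so reads of overlapping antisense RNA cannot be told from those of the gene.

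**Figure D2:**
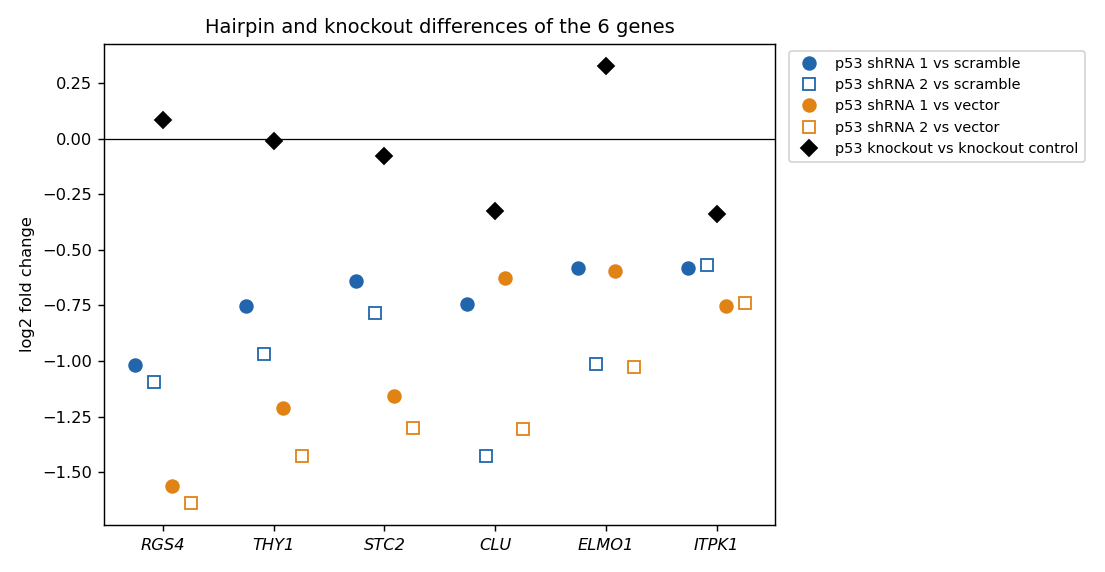
Log2 fold change (y axis) of each gene (x axis) for each hairpin against scramble (blue) and vector (orange), with shRNA 1 filled and shRNA 2 open, and for the knockout against its control (black diamonds). The 24 hairpin values lie between -0.57 and -1.64, and the 6 knockout values between -0.34 and 0.33.

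The knockout comparison took no part in the choice of the genes. None of the 6 passed the test, and 2 of 13365 genes did (0.015%; edgeR quasi-likelihood test, adjusted p below 0.05), while 2 of the 6 and 859 of all genes had an unadjusted p below 0.05. DESeq2 called 0 of the 6 and limma-voom called 0. The median log2 fold change of the 6 was -0.05, beside -0.01 over all genes tested. ITPK1 was at -0.34 (SE 0.12, 95% interval -0.60 to -0.07, adjusted p 0.71), and both its knockout libraries lay below both control libraries, as in 11.2% of all genes. CLU was at -0.32 (SE 0.15, interval -0.65 to 0.003, adjusted p 0.77), with overlapping libraries. ELMO1 was at 0.33 (SE 0.13, interval 0.04 to 0.62, adjusted p 0.76), and both its knockout libraries lay above both control libraries, as in 12% of all genes. RGS4 was at 0.08 (interval -0.35 to 0.52), THY1 at -0.01 (interval -0.31 to 0.29) and STC2 at -0.08 (interval -0.31 to 0.15), with adjusted p of 0.91, 0.99 and 0.83. These intervals use a spread pooled over both arms (9.55%). That is below the 15.6% of the knockout arm alone, so they may be too narrow.

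The calls in the knockout changed with replicate 2 of its control: without it, STC2 (-0.23, adjusted p 0.039), CLU (-0.52, adjusted p 0.0081) and ITPK1 (-0.47, adjusted p 0.0062) were called lower in edgeR, and 4135 genes were called in all. That fit leaves 1 library in the control, which is assumed to vary like the other groups, and the knockdown arm, whose spread was smaller, then supplies most of the error. Without replicate 1 of that control no gene of the 6 was called, and THY1 was at 0.24 and STC2 at 0.09.

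**Figure D3:**
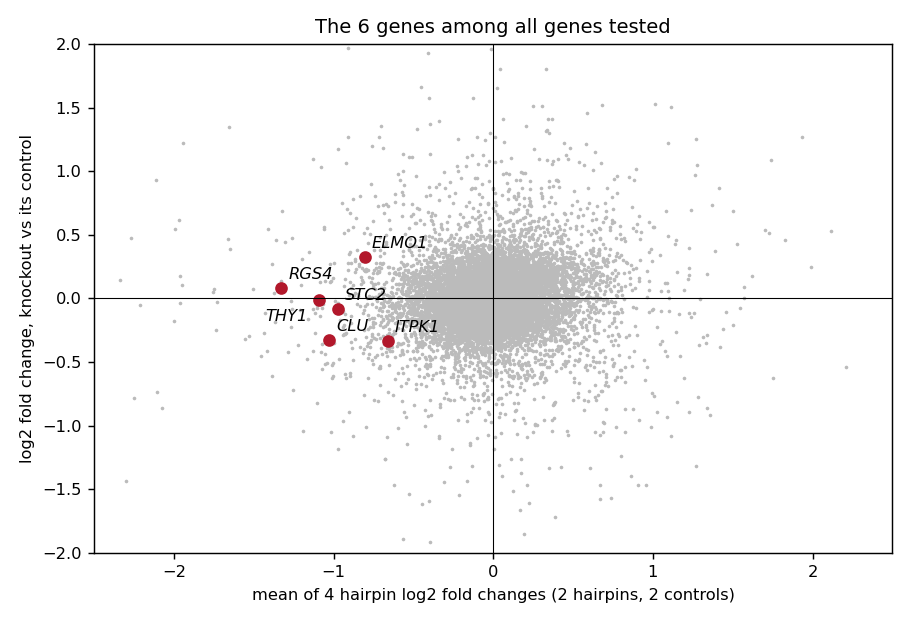
Log2 fold change of the knockout against its control (y axis) over the mean of the 4 hairpin log2 fold changes (x axis) for all genes tested (grey; 38 of 13365 lie outside the axes), with the 6 genes in red. The genes lie left of 0 because they were chosen so, and their heights run from -0.34 to 0.33.

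The other comparisons separated the genes further. Their contrasts were not used in the choice, although their libraries were. Between the hairpins, CLU was lower with shRNA 2 than with shRNA 1 by a log2 fold change of -0.68 (SE 0.18, edgeR adjusted p 0.026), the 1 call among the 6, where 14.3% of all genes were called, 7.07% of all genes as lower. That call was lost when any of the 4 hairpin libraries was left out (adjusted p 0.12 to 0.14), with log2 fold changes of -0.66 to -0.71. ELMO1 was at -0.43 (interval -0.80 to -0.07, adjusted p 0.11), with no overlap between the hairpins. THY1 at -0.22 (interval -0.52 to 0.09), STC2 at -0.14 (interval -0.37 to 0.09), RGS4 at -0.08 (interval -0.52 to 0.37) and ITPK1 at 0.01 (interval -0.30 to 0.32) did not pass the test. In an edgeR fit to the hairpin libraries alone THY1 and STC2 were also called, with adjusted p of 0.017 and 0.027. That fit called 5032 genes in all, against 1909 in the fit to all 12 libraries.

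Scramble and vector both keep p53 R175H per the labels. RGS4, THY1 and STC2 were lower in scramble than in vector, and the cause was not tested. The log2 fold change was -0.55 for RGS4 (SE 0.16, edgeR adjusted p 0.038), -0.46 for THY1 (SE 0.13, adjusted p 0.037) and -0.52 for STC2 (SE 0.10, adjusted p 0.0060). Over all genes tested, 15.3% were called, and 8.16% were called lower in scramble. CLU was at 0.12 (interval -0.21 to 0.45), ELMO1 at -0.01 (interval -0.31 to 0.28) and ITPK1 at -0.17 (interval -0.45 to 0.11), with adjusted p of 0.66, 0.97 and 0.41. The calls of RGS4 and THY1 were marginal with the spread pooled over both arms: DESeq2 gave RGS4 an adjusted p of 0.091. In edgeR fits to scramble and vector alone, or to the knockdown arm alone, all 3 genes were called. Those fits called 5645 and 5462 genes in all. RGS4 lost its call without replicate 1 of scramble (-0.38, adjusted p 0.28) or without either library of vector, shRNA 1 or the knockout (-0.51 to -0.58, adjusted p 0.050 to 0.18). THY1 lost it without either library of scramble, vector, shRNA 1 or shRNA 2 (-0.38 to -0.55, adjusted p 0.059 to 0.26). STC2 lost it without replicate 2 of scramble (adjusted p 0.074) or replicate 1 of vector (adjusted p 0.053).

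The control of the knockout arm was then set against the mean of scramble and vector. The genes were chosen for scramble and vector values above those of the hairpins. That choice can by itself tilt this contrast towards lower values, and the adjusted p values do not allow for it. RGS4 was lower in it by a log2 fold change of -1.51 (SE 0.16, edgeR adjusted p 6.9e-06), STC2 by -0.93 (SE 0.094, adjusted p 4.4e-06) and THY1 by -0.89 (SE 0.12, adjusted p 4.4e-05). ITPK1 was higher by 0.83 (SE 0.10, adjusted p 2.5e-05). CLU was at 0.30 (adjusted p 0.056) and ELMO1 at 0.10 (adjusted p 0.49). CLU depended on the library of the knockout control that was left out: it was at 0.49 without replicate 2 and at 0.06 without replicate 1. The arms differed throughout: 67.7% of all genes were called, 33% lower and 34.8% higher, so 3 calls lower and 1 higher among 6 are near what the whole table shows. Arm, construct and doxycycline cannot be told apart here. All 10 fibroblast and mesenchymal markers were called lower in the knockout control than in the mean of scramble and vector (edgeR), and both its libraries lay below the 4 of scramble and vector for each. Their levels, of which VIM and FN1 are a large part, came to a summed 11260 to 13530 CPM in the knockout control, against 51170 to 51550 CPM in scramble and 43350 to 43610 CPM in vector, with no marker at 0. With the hairpins the sum was 54890 to 59150 CPM, and single markers need not follow it. The part of these markers in the THY1 differences was not tested.

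**Figure D4:**
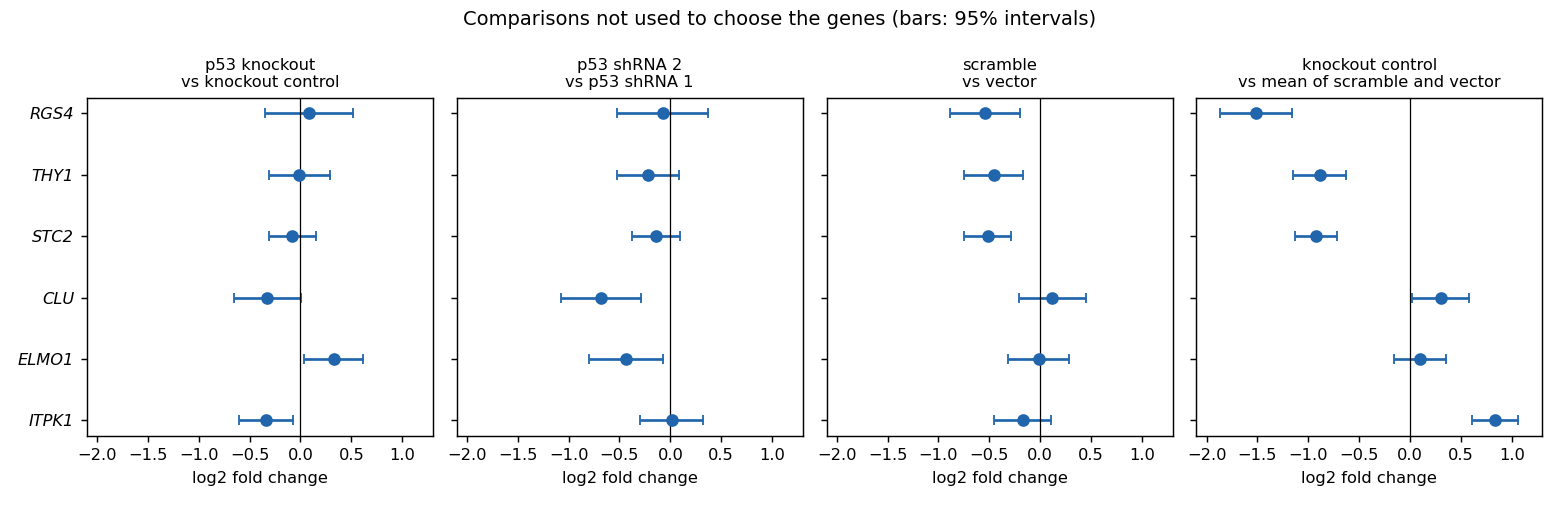
Log2 fold change (x axis) of each gene with its 95% interval in 4 comparisons: knockout over its control, shRNA 2 over shRNA 1, scramble over vector, and knockout control over the mean of scramble and vector. None of these contrasts chose the genes, but all except the first use libraries of the choice. The intervals use a spread pooled over both arms. RGS4, THY1 and STC2 lie at -0.46 to -0.55 in the third panel and at -0.89 to -1.51 in the fourth, where CLU, ELMO1 and ITPK1 lie at 0.10 to 0.83.

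Over the 12 libraries the genes fell into 2 trios by correlation. Genes of a trio still differed in single comparisons: in the knockout ELMO1 was at 0.33 and ITPK1 at -0.34. Pearson correlations of log2 CPM ran from 0.90 to 0.98 among RGS4, THY1 and STC2 and from 0.83 to 0.90 among CLU, ELMO1 and ITPK1, and from -0.08 to 0.53 between the 2 trios. The 12 points share groups, an arm difference and the hairpin difference that chose the genes. The trios were formed after the values were seen, so these correlations are a description. The genes of 9576 eligible ones most like each member by the same measure were GPR176 (0.94) and CCDC80 (0.94) for RGS4, GARS (0.96) and GPR176 (0.95) for THY1, and GARS (0.96) and GPR176 (0.96) for STC2. BLVRA (0.96) and FASN (0.95) came closest to CLU, CSNK1A1 (0.96) and CRLS1 (0.95) to ELMO1, and KIF7 (0.98) and GADD45A (0.98) to ITPK1. GPR176 was at 149 CPM with shRNA 1 and 159.1 CPM with shRNA 2, against 234.2 CPM in scramble and 261.6 CPM in vector, and at 159.3 CPM in the knockout and 166.3 CPM in its control. GPR176, CCDC80 and GADD45A were among the 39 genes called lower in all 4 hairpin comparisons, and the rest of the likest genes were not.

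Related genes were taken from 7 lists written from general knowledge, which hold none of the 6 genes. All 145 entries were matched and 108 genes were tested. In the knockout 0 listed genes were called by edgeR and 1 by DESeq2, and 10 of 108 (9.26%) had an unadjusted p below 0.05 in edgeR, beside 6.43% of all genes tested. Over all genes, edgeR called 2 and DESeq2 called 23. In all 4 hairpin comparisons 1 listed gene was called lower (0.292% of all genes) and 1 higher (0.232%), both from the list of stanniocalcin, PAPP-A and insulin-like growth factor genes. IGFBP3, which encodes a binding protein that carries insulin-like growth factors, fell to 159.8 CPM with shRNA 1 and 88.1 CPM with shRNA 2, against 202.3 CPM in scramble and 370.1 CPM in vector, with a largest adjusted p of 0.019. Its mean was 100.8 CPM in the knockout and 93.7 CPM in its control. IGFBP3 was itself lower in scramble than in vector, with a log2 fold change of -0.87 (edgeR adjusted p 3.0e-05). It was also lower with shRNA 2 than with shRNA 1 (-0.86, adjusted p 9.4e-05). IGF2R, which encodes a receptor that clears insulin-like growth factor 2, rose to 342.3 and 482.6 CPM with shRNA 1 and shRNA 2, against 223.2 CPM in scramble and 266.3 CPM in vector, with a largest adjusted p of 0.047. STC1, the paralogue of STC2, did not share its order. It was at 145.9 CPM with shRNA 1 and 177.4 CPM with shRNA 2, against 210.6 CPM in scramble and 100.5 CPM in vector. STC1 was called higher in scramble than in vector, by 1.07 (adjusted p 4.2e-05), where STC2 was called lower; it was picked after its values were seen.

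The remaining lists had 0 genes called the same way in all 4 hairpin comparisons. Of 10 tested RGS family genes, 3 were called lower with shRNA 1 against scramble and 1 with shRNA 2, and against vector 0 were called with shRNA 1, and 2 higher and 1 lower with shRNA 2. Called genes over the whole table, in either direction, were 9.41%, 7.74%, 13% and 21% in these 4 comparisons. RGS2, a relative of RGS4 that acts on Gq, was lower with shRNA 1 against scramble by a log2 fold change of -0.94 (adjusted p 0.0012). It was higher with shRNA 2 against vector by 0.70 (adjusted p 0.0023). RGS2 was not called with shRNA 1 against vector (0.12) or with shRNA 2 against scramble (-0.36). It was itself higher in scramble than in vector, by 1.06 (edgeR adjusted p 1.8e-04). RGS3 and RGS19 were called in none of the 4. Of 9 G alpha subunit genes, on whose products RGS proteins act, 0 were called against scramble and 1 was called higher with each hairpin against vector. GNA12 was that gene with shRNA 2 (0.29, adjusted p 0.021), and GNAQ and GNAI1 were called in none.

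Of 25 tested genes of the ELMO, DOCK and RAC module, 2 were called higher with shRNA 1 and 2 higher and 1 lower with shRNA 2 against scramble. Against vector the counts were 1 higher and 1 lower with shRNA 1, and 4 higher and 1 lower with shRNA 2. GULP1, an adaptor of engulfment, rose with both hairpins against scramble by 1.04 (adjusted p 0.0044) and 1.396 (adjusted p 8.0e-04), the direction opposite to ELMO1. Against vector GULP1 was at 0.19 (adjusted p 0.50) and 0.55 (adjusted p 0.031). GULP1 was itself lower in scramble than in vector, with a log2 fold change of -0.85 (edgeR adjusted p 0.0067). DOCK6 and RAC3 were called in none of the 4. Of 25 inositol phosphate genes, 1 was called higher and 1 lower with shRNA 1 and 2 higher with shRNA 2 against scramble. Against vector 1 was lower with shRNA 1, and 5 were higher and 2 lower with shRNA 2, but not IP6K2, INPP5K or IMPA1.

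Of 10 tested clusterin receptor, apolipoprotein and chaperone genes, 1 was called higher and 2 lower with shRNA 1, and 2 lower with shRNA 2, against scramble. Against vector 1 was lower with each hairpin. LRP8, a lipoprotein receptor to which clusterin binds, rose with shRNA 1 against scramble (0.74, adjusted p 0.019) and fell with shRNA 2 against vector (-0.71, adjusted p 0.012). APOL1 and APOL6 were called in none. Of 19 integrin partners of THY1 and mesenchymal surface genes, 2 were called higher and 1 lower with shRNA 1, and 1 higher and 1 lower with shRNA 2, against scramble. Against vector 3 were higher and 3 lower with shRNA 1, and 4 higher and 4 lower with shRNA 2. PDGFRB, a growth factor receptor gene of mesenchymal cells, rose with both hairpins against vector by 0.61 (adjusted p 8.9e-04) and 1.09 (adjusted p 6.8e-06), where THY1 lay lower, and PDGFRA rose by 0.39 (adjusted p 0.049) and 0.48 (adjusted p 0.013). Against scramble neither passed the test: PDGFRB was at -0.22 (adjusted p 0.13) with shRNA 1 and 0.26 (adjusted p 0.085) with shRNA 2, and PDGFRA at 0.31 (adjusted p 0.13) and 0.40 (adjusted p 0.060). PDGFRB was itself higher in scramble than in vector, by 0.83 (adjusted p 6.0e-05). CD44, the hyaluronan receptor gene, rose with shRNA 2 against vector (0.25, adjusted p 0.036). In the knockout CD44 was at 0.21, PDGFRA at 0.52 and PDGFRB at 0.35, with adjusted p of 0.70, 0.33 and 0.50.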

How the data were processed

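Per the submitters' processing notes, the authors used bcl2fastq and STAR 2.5 with build hg19; how reads were assigned to genes, on which strand and with which annotation, is not given in the sources used here. Their deposited file holds raw whole-number counts, 1 row per gene symbol and 1 column per library, without scaling. Here edgeR 4.0.16 (R 4.3.3) was run on those counts: filterByExpr (minimum count 10), TMM scaling, 1 coefficient per group over all 12 libraries (6 residual degrees of freedom), two-sided quasi-likelihood F tests and Benjamini-Hochberg adjustment over 13365 genes; a call is an adjusted p below 0.05. Intervals use the moderated degrees of freedom and a spread pooled over both arms. That spread is smaller than that of the knockout arm alone and larger than that of the knockdown arm alone. Alternatives used DESeq2 1.42.0, limma 3.58.1 (voom), other size factors and filters, fewer libraries and a replicate block. The procedure was also run on simulated data in which each gene had the same spread in both arms. That cannot show how the tests do where the arms differ in spread, as they did here.

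The members and lists were chosen with earlier results of these data known. Named genes are the members, the 2 likest genes per member (at least 5 CPM in a group), neighbours and, per list, up to 4 genes called alike in all 4 hairpin comparisons or else the 3 with the smallest adjusted p in the knockout. The targeted gene is not reported here. Figures were drawn with matplotlib 3.10.9.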

Additional observations from a re-analysis of the deposited data

Results flagged for a closer look

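ELMO1 libraries were ordered differently in the arms: both knockout libraries (13.4 and 11.3 CPM) lay above both libraries of their control (10.2 and 9.36 CPM), with a log2 fold change of 0.3267 that did not pass the test (adjusted p 0.76, edgeR), while the 4 hairpin libraries lay below scramble and vector. The hairpin direction is what chose the gene, so the difference between the arms was not tested. The knockout value ran from 0.21 to 0.44 over 22 alternative settings and was called in 0 of them.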

How the results depend on the processing

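Each hairpin log2 fold change of the 6 genes stayed below 0 in all 504 values over 21 alternatives, and 6 values, all of RGS4, moved by more than the spread between libraries. The set called lower in all 4 comparisons numbered 39 and held all 6 genes; it numbered 27 with DESeq2 (5 of the 6), 280 in the fit to the knockdown arm (6), 25 with the replicate block (6), and 7 to 14 (0 to 4 of the 6) without a knockdown-arm library, against 146 (6) without a library of the knockout control. In the knockout, 0 of the 6 were called, with 0 to 3 as each library was left out, and 2 genes in all, against 64 with no low-count filter, 23 with DESeq2, 0 in the knockout arm alone and 1 to 4135 without a library. Between the hairpins 1 was called (0 to 1 without a library), 3 with the compared libraries or the arm alone, and 0 at an adjusted p below 0.01; genes called in all were 1909, against 5032, 5038 and 854. Between scramble and vector 3 were called (0 to 3 without a library), 1 with the replicate block and 1 at 0.01; genes called in all were 2039, against 5645 with the compared libraries, 5462 in the arm and 1012 at 0.01. The listed genes called in all 4 hairpin comparisons numbered 2, against 5 with no filter and 13 in the knockdown arm alone, with both of the 2 included. Signs turned only among values that were not called: THY1 in the knockout was at 0.0029 with limma-voom and 0.0075 in that arm alone, and ITPK1 between the hairpins at -0.022 with upper quartile scaling. Without a library, the knockout values ran from -0.026 to 0.19 for RGS4, -0.22 to 0.24 for THY1 and -0.23 to 0.094 for STC2; the values between hairpins ran from -0.32 to 0.13 for RGS4 and -0.11 to 0.13 for ITPK1; and those between scramble and vector ran from -0.0012 to 0.24 for CLU and -0.059 to 0.024 for ELMO1. The cause was not tested. Replicate numbers did not pair the samples: correlations of the differences between replicates 1 and 2 ran from -0.469 to 0.156 over pairs of groups. A crossed replicate block in the knockout arm was chosen after seeing the data because its groups correlated at -0.469. It called 1 of the 6, ITPK1 (-0.34, edgeR adjusted p 0.032), and 624 genes in all. The lowest counts were 52 for RGS4 and 53 for ELMO1, which limits their precision.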

Other observations

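The nearest tested genes on either side of each member on its chromosome, by gene order in the RefSeq table, were compared in the same way. RGS4 lies on chromosome 1, THY1 on 11, STC2 on 5, CLU on 8, ELMO1 on 7 and ITPK1 on 14. Of these 12 neighbours, 0 were called lower and 0 higher in all 4 hairpin comparisons, and 0 were called in the knockout by edgeR, DESeq2 or limma-voom, with 2 at an unadjusted p below 0.05 (edgeR). RGS5, beside RGS4 and of the same family, was at -0.09 and -0.12 against scramble and at -0.55 and -0.58 against vector, with adjusted p between 0.22 and 0.92. SCARA3, beside CLU, fell under shRNA 1 by a log2 fold change of -1.10 relative to scramble (adjusted p 0.0093) and -1.29 relative to vector (adjusted p 0.0026). Under shRNA 2 it was at 0.13 and -0.06. ANLN, beside ELMO1, fell relative to vector by -0.65 under shRNA 1 (adjusted p 0.015) and by -1.20 under shRNA 2 (adjusted p 1.9e-04). Relative to scramble ANLN was at 0.22 and -0.33.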
